A study of Mus musculus with 6 samples.

Results

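The active zone is the patch of presynaptic membrane where vesicles dock, are primed and fuse. Here 10 genes of its core proteins were followed in mouse hippocampus, of 52550 genes in the count table: Unc13a, Unc13b and Unc13c, Rims1 and Rims2, Rimbp2, Bsn, Pclo, Erc1 and Erc2. They were matched by symbol to Ensembl identifiers, and 105 of the 40961 listed splicing events belonged to them. The genes were selected on a list drawn up when their gene counts and junction counts in these same 6 libraries were already known, so every difference between the groups below is a description of these libraries. Munc13 proteins (Unc13 genes) prime vesicles for release, RIM proteins (Rims genes) gather Munc13, Rab3 and calcium channels at the release site, and RIM-binding protein (Rimbp2) links RIM to the channels. Bassoon (Bsn) and piccolo (Pclo) are giant scaffolds of the active zone, and ELKS (Erc1) and CAST (Erc2) are scaffold proteins that bind RIM, bassoon and piccolo.

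The 3 control libraries came from male C57BL/6 J mice labelled wild type that received adeno-associated virus (AAV) with a control shRNA in the CA1 areas of both hemispheres at 8 weeks of age. The 3 other libraries came from mice of the same sex, strain and age that received AAV with shRNAs against the long isoform of hnRNP DL (L-DL), an RNA-binding protein. The L-DL virus held 4 shRNAs in tandem, each behind an H1 promoter that is not restricted to neurons, and a CamkIIα promoter drove only the zsGreen marker. The control virus was given at a higher titre, RNA came from hippocampus rather than from CA1 alone, and the age at collection was not given in the sources used here. The sample labels name the modified mice both as hnRNP DL-/- and as a knockdown. Whether a library was 1 mouse or a pool was not given in the sources used here, so p-values measure the spread between these libraries.

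Hnrnpdl itself was at 177 ± 6.42 CPM (counts scaled to library size by the TMM method; SD, n = 3) in control libraries. In the others it was at 180 ± 33.9 CPM (SD, n = 3). The groups overlapped, with a log2 fold change of 0.03 and a standard error of 0.12 (adjusted p = 0.898 by edgeR, Benjamini-Hochberg over 17621 genes). The second group is therefore written as the libraries labelled L-DL KD. The gene count sums the long and the short isoform, so the transcript of L-DL alone was not measured. The 6 libraries held 16052529 to 17913064 counted reads. The sum over 10 neuron marker genes was 5381 to 5652 CPM in the controls and 3458 to 4114 CPM in libraries labelled L-DL KD, and 8 of the 10 were lower and 1 higher at an adjusted p under 0.05. All 10 microglia marker genes were higher, and their sum was 1352 to 1691 CPM in the controls against 2840 to 3656 CPM. None of these 20 markers was at 0 in any library. The choroid plexus genes, whose share follows the dissection, ranged from 430 to 4579 CPM among the controls and from 28.8 to 5129 CPM among libraries labelled L-DL KD. In bulk tissue, fewer cells of a type and less RNA per cell cannot be told apart.

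Among the tested segments of the members, the one with the largest difference in inclusion lay in Unc13a. In transcript Unc13a-201, 3 small exons follow one another on chromosome 8, minus strand: exon 36 (6 nt), exon 37 (39 nt) and exon 38 (30 nt), at chr8:71636538-71639222 (GRCm38). Together they hold 75 nt, a multiple of 3 with no in-frame stop codon in Unc13a-201. The sequence is shown because a junction that was nearly absent in the controls left out all 3 exons. Capitals mark exons 36 to 38, and lower case marks 20 nt of exon 35 before and 20 nt of exon 39 after them, read from the GENCODE transcript.
Unc13a with exons 36 to 38: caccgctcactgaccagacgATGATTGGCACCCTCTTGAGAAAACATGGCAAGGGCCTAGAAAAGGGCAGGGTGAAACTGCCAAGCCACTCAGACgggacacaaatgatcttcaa
Unc13a with exon 35 joined to exon 39: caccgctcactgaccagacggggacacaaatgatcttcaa

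Reads that joined exon 35 directly to exon 39 numbered 2, 0 and 2 in the controls and 36, 42 and 46 in libraries labelled L-DL KD, in the order the splicing table lists them. The groups lay far apart, with 4 reads in all controls against 124 in the other libraries. Junction reads that included exon 38 numbered 27, 23 and 21 in the controls and 35, 22 and 22 in libraries labelled L-DL KD, and here the groups overlapped. The percent spliced in (PSI), the share of the form with the alternative part after each count was divided by its effective length, was 0.919, 1 and 0.898 for exon 38 in the controls and 0.449, 0.305 and 0.286 in libraries labelled L-DL KD. It was thus lower in all 3 of the latter. Mean PSI went from 0.939 ± 0.0540 (SD, n = 3) to 0.346 ± 0.0890 (SD, n = 3). In a fit of the junction counts over 18829 events the adjusted p was 0.0497 by edgeR, and it was above 0.05 whenever any 1 library was left out.

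Other junction counts of the same stretch of Unc13a are given beside this value, since reads across several small exons may count toward more than 1 event or toward none. Junction reads that included exon 37 numbered 33, 36 and 25 in the controls and 23, 12 and 18 in libraries labelled L-DL KD. For exon 36 they were 19, 13 and 16 against 4, 3 and 10. Both exons had fewer inclusion reads in every library labelled L-DL KD than in any control, and neither event was tested. For exon 37 the skipping form held only 2 reads in all libraries together, under the minimum of 1 on average, and for exon 36 the junction reads averaged 12.3 per library, under the minimum of 20. Set against the reads that included the preceding exon 35, which numbered 208, 176 and 164 in the controls and 144, 149 and 139 in the others, the junction from exon 35 to exon 39 had 0.962, 0 and 1.22 reads for each 100 in the controls. The same ratio was 25, 28.2 and 33.1 for each 100 in libraries labelled L-DL KD, which did not overlap the controls. This second measure was chosen after the values were seen, and its level of skipping was lower than the PSI of exon 38 gives. A mutually exclusive event that sets exon 38 against a short form of exon 35 uses the same reads. Its PSI, the share without exon 38, was 0.0519, 0 and 0.0311 in the controls and 0.342, 0.490 and 0.510 in libraries labelled L-DL KD (adjusted p = 0.0595 by edgeR). A second such event sets exon 38 against the full exon 35, which most transcripts hold, and had 189 to 237 junction reads per library. Its PSI was 0.836, 0.834 and 0.825 in the controls and 0.761, 0.861 and 0.846 in libraries labelled L-DL KD. These groups overlapped (change -0.00887, unadjusted p of 0.843 by edgeR). Unc13a-201 holds both exon 35 and exon 38, so this PSI is not the share without exon 38 and cannot measure the skipping.

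**Figure D1:**
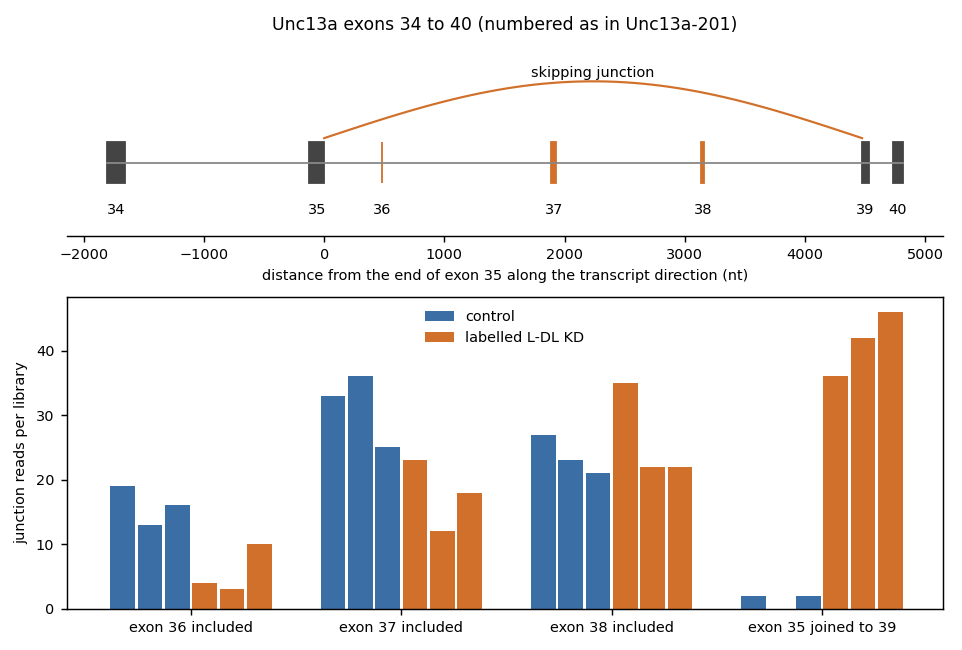
Upper panel, exons 34 to 40 of Unc13a drawn to scale along the transcript, in nt from the end of exon 35, with exons 36 to 38 and the junction that skips them in orange. Lower panel, junction reads in each of 3 control (blue) and 3 L-DL KD-labelled (orange) libraries: the bars of exon 35 joined to exon 39 stand at 0 to 2 in the controls and 36 to 46 in the others, while exon 38 inclusion overlaps between the groups.

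At the level of the whole gene, 7 of the 10 members had lower counts in libraries labelled L-DL KD at an adjusted p under 0.05, and none had higher counts. Among all 17621 genes tested, 15% were lower and 15.6% were higher by the same call. The median log2 fold change was -0.49 over the members and 0.01 over all genes tested. In the same 7 members every library labelled L-DL KD lay below every control, which held for 23.4% of all genes tested. All 10 members passed the filter on low counts. Because the genes were chosen with these values known, the counts are set beside the background and nothing is read from them.

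Of the Munc13 genes, Unc13a alone passed the threshold. Unc13a (chr8:71624417-71671757), the main priming factor of glutamatergic synapses, was at 413, 383 and 425 CPM in the controls and at 357, 343 and 303 CPM in libraries labelled L-DL KD. The groups did not overlap, and the log2 fold change of -0.28 (standard error 0.08) had an adjusted p = 0.0319 by edgeR. This call was lost when any 1 library other than L-DL KD replicate 1 was left out, with log2 fold changes from -0.33 to -0.22 over all 6 omissions. Over 495 nt, Unc13a exons overlap exons of Colgalt1 on the opposite strand (mean 65.1 CPM), and the library kit does not mark strand, so reads there cannot be told apart. Unc13b (chr4:43058953-43264871), which codes for the Munc13-2 forms, was at 63.4, 59.2 and 74.4 CPM against 64.5, 53.0 and 51.4 CPM. Its groups overlapped (log2 fold change -0.22, standard error 0.12, adjusted p = 0.192), and without L-DL KD replicate 1 the log2 fold change was -0.33 (adjusted p = 0.0335 by edgeR). Unc13c (chr9:73479422-73968966), the Munc13-3 gene known from cerebellum, was the lowest member, at 17.9, 15.2 and 16.7 CPM against 8.71, 21.8 and 17.2 CPM. L-DL KD replicates 1 and 2 lay on either side of all controls, and leaving out replicate 1 turned its log2 fold change from -0.07 (adjusted p = 0.889 by edgeR) to 0.23.

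Both RIM genes were lower by larger amounts. Rims1 (chr1:22286251-22805994) was at 134, 125 and 140 CPM in the controls and at 91.2, 77.0 and 62.0 CPM in libraries labelled L-DL KD. The highest of the latter lay well below the lowest control, and Rims1 stood at 57.8% of its control level (log2 fold change -0.79, standard error 0.13, adjusted p = 0.00345 by edgeR). Rims2 (chr15:39198261-39684372) was at 42.7, 38.7 and 42.9 CPM against 28.0, 28.7 and 21.0 CPM, again without overlap. This was a log2 fold change of -0.68 (standard error 0.13, adjusted p = 0.0062 by edgeR). Rimbp2 (chr5:128757791-128953486) was the one member with a positive log2 fold change, at 191, 166 and 174 CPM in the controls and 277, 240 and 165 CPM in libraries labelled L-DL KD. L-DL KD replicate 3 lay below all controls and the other two above them. The log2 fold change of 0.36 (standard error 0.17) had an adjusted p = 0.145 by edgeR, and it was 0.55 (adjusted p = 0.00543) without L-DL KD replicate 3 and 0.20 (adjusted p = 0.298) without L-DL KD replicate 1.

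Of the scaffold genes, Pclo had the lowest ratio of all members. Pclo (chr5:14514918-14863459) was at 217, 232 and 248 CPM in the controls and 135, 142 and 107 CPM in libraries labelled L-DL KD, with no overlap. Pclo stood at 55.2% of control (log2 fold change -0.86, standard error 0.11, adjusted p = 0.0012 by edgeR). Bsn (chr9:108096022-108190384), which codes for the related protein bassoon, was at 514, 459 and 528 CPM against 322, 432 and 291 CPM. L-DL KD replicate 2 came close to the lowest control, and the log2 fold change of -0.52 (standard error 0.14, adjusted p = 0.0256 by edgeR) was not called without control replicate 1 (adjusted p = 0.0823), control replicate 3 (0.0885) or L-DL KD replicate 3 (0.053). The ratio of Bsn to Pclo per kilobase of exon was 3.34, 2.79 and 3.0 in the controls and 3.37, 4.27 and 3.82 in libraries labelled L-DL KD, which lay above all controls. For the ELKS family, Erc1 (chr6:119570796-119848167) was at 47.8, 49.8 and 55.8 CPM against 32.7, 42.4 and 37.2 CPM. Erc2 (chr14:27622428-28478537), the form found mainly in brain, was at 155, 160 and 176 CPM against 127, 113 and 100 CPM. Neither pair of groups overlapped, with log2 fold changes of -0.45 for Erc1 (standard error 0.11, adjusted p = 0.0176 by edgeR) and -0.53 for Erc2 (standard error 0.10, adjusted p = 0.00531). The Erc1 call was lost without control replicate 2 (adjusted p = 0.0517) or control replicate 3 (0.0704). The Rims1, Rims2, Pclo and Erc2 calls held with any 1 library left out.

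**Figure D2:**
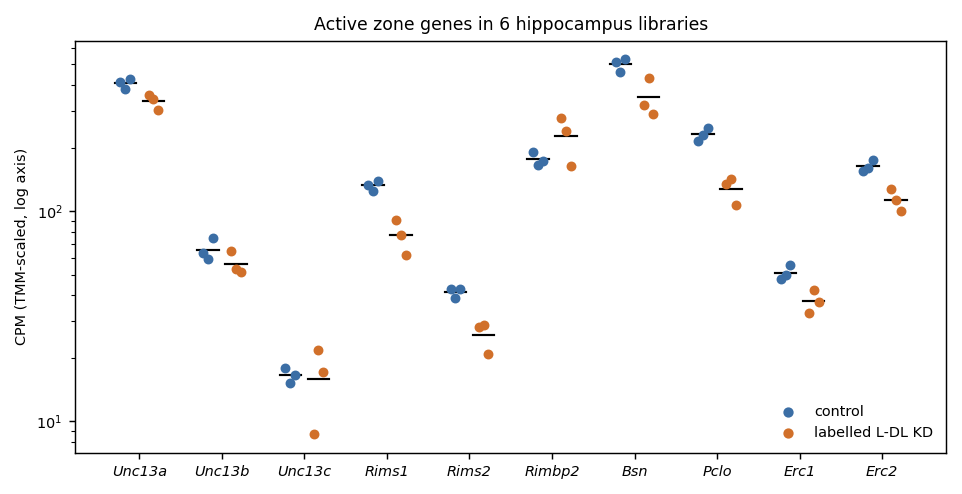
CPM of the 10 genes on a log axis, 1 point for each library (3 control in blue, 3 labelled L-DL KD in orange) with a bar at the group mean. In 7 genes the orange points lie below all blue points, from Unc13a (303 to 357 against 383 to 425 CPM) to Pclo (107 to 142 against 217 to 248 CPM).

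The neuron markers were lower in the same libraries as the members. So were 4 of 6 interneuron, 3 of 5 CA1 pyramidal and 4 of 8 astrocyte markers at an adjusted p under 0.05, while 1 astrocyte marker was higher. In the oligodendrocyte, CA3 pyramidal and dentate granule lists at most 1 gene was called lower and at most 1 higher. With the libraries scaled to the 10 neuron genes, the median log2 fold change of all genes was 0.53. On that scale Pclo (-0.35, adjusted p = 0.0136 by edgeR) and Rims1 (-0.28, adjusted p = 0.0462) were lower. Rimbp2 (0.86, adjusted p = 0.000544) and Unc13a (0.23, adjusted p = 0.0301) were higher, so the direction of Unc13a flipped. The other 6 were not called. Bsn and Erc2 stood at -0.01 and Rims2 at -0.17, while Erc1 (0.07), Unc13b (0.30) and Unc13c (0.47) changed sign. The median of all genes moved from 0.01 to 0.53 with this scaling. Unc13a, Erc1, Unc13b and Unc13c lay below that median on both scales. What share of the differences goes with the share of neurons was not tested further.

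Within the controls, levels per kilobase of annotated exon differed widely between members. Unc13a (32.3 ± 1.70 CPM per kilobase, SD, n = 3) and Bsn (31.4 ± 2.28) were highest and their ranges overlapped. Rimbp2 followed at 22.3 ± 1.63, and then Rims1 (18.0 ± 1.04) and Erc2 (16.8 ± 1.11), which overlapped with each other. Pclo stood at 10.3 ± 0.689. Rims2 (3.99 ± 0.228), Erc1 (3.14 ± 0.253) and Unc13b (2.89 ± 0.344) came next, of which Erc1 and Unc13b overlapped, and Unc13c was last at 1.89 ± 0.153. Paralogs among the members differed in level: Unc13a was 10.3 to 11.7 times Unc13b in the controls and 9.98 to 11.7 times in libraries labelled L-DL KD. Rims1 was 4.42 to 4.60 times Rims2 in the controls and 3.79 to 4.59 times in the others. Erc2 was 5.28 to 5.44 times Erc1 in the controls and 4.45 to 6.49 times in the others. These 3 ratios overlapped between the groups. They depend on the annotated length, which was 12623 nt for Unc13a against 22746 nt for Unc13b, and 9728 nt for Erc2 against 16271 nt for Erc1. Before division by length, control means were 407 CPM for Unc13a and 65.7 CPM for Unc13b, and 164 CPM for Erc2 and 51.1 CPM for Erc1.

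The genes that work beside the members at the release site were described by a list of 27 genes: liprins, Rab3 and its effectors, presynaptic calcium channel subunits, SNARE proteins and their partners, complexins, synaptotagmin 1 and CAPS. Of these, 17 were lower, 1 was higher and 9 were not called at an adjusted p under 0.05, and the median log2 fold change was -0.50. Over all genes 15% were lower and 15.6% higher, and with scaling to the neuron list 4 of the 27 were lower and 7 higher. Snap25 and Syt1 stand in the neuron list as well. The largest falls were in Rims4 (log2 fold change -1.57, standard error 0.11), a small RIM of the same family as Rims1, Snap25 (-1.0, standard error 0.10), the SNARE on the target membrane, Rims3 (-0.92, standard error 0.21) and Syt1 (-0.92, standard error 0.10), the calcium sensor of fast release. Rims4 went from 48.6 ± 1.83 CPM to 16.3 ± 2.13 CPM (SD, n = 3), which is 33.6% of control. The one rise was Ppfia4, a liprin, at 134 ± 5.94 CPM in the controls and 188 ± 23.2 CPM in libraries labelled L-DL KD (log2 fold change 0.50, standard error 0.10, adjusted p = 0.00636 by edgeR). All 4 RIM genes, with the 2 members, were thus lower, and the 4 liprins went in different directions, since Ppfia3 was lower (-0.80, standard error 0.10) and Ppfia1 (0.05) and Ppfia2 (0.26) were not called. With scaling to the neuron list no RIM gene or liprin changed its sign, Rims4 stood at -1.06 (adjusted p = 0.000199 by edgeR), Rims2 and Rims3 were no longer called, and Ppfia1 (0.59, adjusted p = 0.00423) and Ppfia2 (0.77, adjusted p = 0.000206) were called higher.

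**Figure D3:**
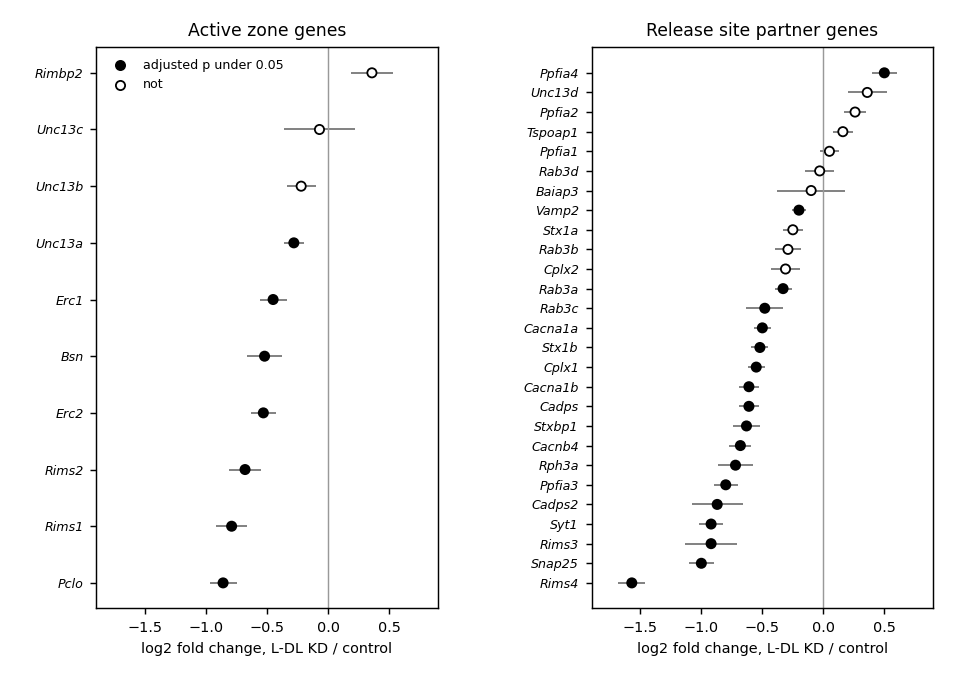
Log2 fold change of each gene (libraries labelled L-DL KD over control, 3 libraries each, TMM scaling) with its standard error, members at left and 27 partner genes at right; filled points have an adjusted p under 0.05. The members run from -0.86 (Pclo) to 0.36 (Rimbp2) and the partners from -1.57 (Rims4) to 0.50 (Ppfia4).

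Splicing was listed for 9 of the 10 genes and tested for 8. Bsn had no listed event, and the only event of Unc13c, a 6 nt exon, had 1 to 5 junction reads per library and was not tested. Of all 105 listed events, 52 reached the minimum for the test, a mean of 20 junction reads per library and of 1 read for each form. Of these 52, 10 had an unadjusted p under 0.05, or 4 in Unc13a, 2 each in Pclo and Erc1, and 1 each in Rims2 and Rimbp2. Among all 18829 events tested, 13.3% had such a p and 0.255% passed the adjusted threshold, which 1 member event (Unc13a exon 38) did. PSI did not overlap between the groups in 13 of the 52 member events (5 higher and 8 lower), against 18.4% of all tested events. Events of 1 gene share reads. The tested skipped exons of the members were short, with a median of 72 nt against 105 nt over all tested skipped exons. Of 29 such exons 6 had at most 30 nt (20.7%, against 5.02% of all), and 21 (72.4%, against 47% of all) had a length divisible by 3. These shares were not tested.

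In Pclo the 27 nt exon 16 of Pclo-201 (chr5:14778539-14778565, plus strand) was included in nearly all control transcripts. The exon is shown because its loss leaves the frame unchanged; capitals mark it, with 20 nt of each neighbouring exon in lower case.
Pclo 27 nt exon: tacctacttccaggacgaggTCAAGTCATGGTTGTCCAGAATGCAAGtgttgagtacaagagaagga
PSI was 0.977, 1 and 0.984 in the controls and 0.856, 0.865 and 0.947 in libraries labelled L-DL KD, lower in all 3 of them. The change of -0.0977 had an unadjusted p of 0.00239 and an adjusted p of 0.140 by edgeR. At another Pclo splice site, a 39 nt extension of the exon at its 3′ splice site (chr5:14718818-14718856) had PSI of 0.102, 0.0774 and 0.0376 in the controls and 0.221, 0.201 and 0.402 in libraries labelled L-DL KD. All 3 of the latter were higher, at an unadjusted p of 0.00427 and an adjusted p of 0.166 by edgeR.

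The further Unc13a segments moved less. A 319 nt intron (chr8:71662536-71662854) was retained at a PSI of 0.0598, 0.0453 and 0.0886 in the controls and 0.105, 0.119 and 0.234 in libraries labelled L-DL KD, with 127 to 172 junction reads per library. The groups did not overlap, at an unadjusted p of 0.0229 and an adjusted p of 0.309 by edgeR. The change of 0.0881 was 0.0472 (unadjusted p of 0.117) without the third listed library labelled L-DL KD, and the unadjusted p was 0.0589 and 0.0821 without the first and the second control. A 304 nt form of this intron, with nearly the same retention reads, had PSI of 0.333, 0.407 and 0.414 in the controls. In libraries labelled L-DL KD it was 0.659, 0.375 and 0.754, and these groups overlapped (unadjusted p of 0.142 by edgeR). A 57 nt exon (chr8:71633439-71633495, exon 42 of Unc13a-208) was rare in both groups, at 0.0374, 0.050 and 0.0673 against 0.0218, 0.0349 and 0.00939. For this exon all libraries labelled L-DL KD lay below the controls, with an unadjusted p of 0.0300 and an adjusted p of 0.329 by edgeR. The unadjusted p was 0.0584 to 0.11 without the second or the third control, or without the first or the third library labelled L-DL KD.

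Unc13b has a 57 nt exon in the same place (chr4:43260993-43261049, exon 37 of Unc13b-203). In both genes it lies between exons of 148 nt and 93 nt. The pair is shown because the exons match in 40 of 57 positions (70.2%) and yet are used very differently; capitals mark the exon. The pair was chosen after its values were seen.
Unc13a 57 nt exon: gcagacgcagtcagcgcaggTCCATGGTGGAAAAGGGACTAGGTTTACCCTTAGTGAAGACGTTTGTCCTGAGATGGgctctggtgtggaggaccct
Unc13b 57 nt exon: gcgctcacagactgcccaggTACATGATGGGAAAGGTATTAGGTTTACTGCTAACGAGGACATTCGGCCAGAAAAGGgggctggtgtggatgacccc
The Unc13b exon was included at a PSI of 0.721, 0.784 and 0.800 in the controls and 0.710, 0.806 and 0.637 in libraries labelled L-DL KD. Every library had a PSI above 0.6 for Unc13b and below 0.07 for Unc13a. The Unc13b groups overlapped (unadjusted p of 0.550 by edgeR), and none of the 4 tested Unc13b events had an unadjusted p under 0.05.

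The ELKS genes also share a small exon, of 12 nt between exons of 194 nt and 136 nt, at chr6:119734081-119734092 in Erc1 and chr14:28046475-28046486 in Erc2. This pair too was chosen after its values were seen. It is shown because the neighbouring exons have the same lengths in both genes, and the 12 nt match in 5 positions. Capitals mark the exon. The match was counted on nt, and the encoded amino acids were not compared.
Erc1 12 nt exon: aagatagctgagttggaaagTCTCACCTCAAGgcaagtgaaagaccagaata
Erc2 12 nt exon: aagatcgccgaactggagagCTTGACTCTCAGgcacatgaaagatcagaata
In Erc1 the PSI was 0.638, 0.682 and 0.749 in the controls and 0.604, 0.576 and 0.636 in libraries labelled L-DL KD, which lay just below (23 to 42 junction reads, unadjusted p of 0.438 by edgeR). In Erc2 it was 0.586, 0.557 and 0.440 against 0.381, 0.450 and 0.290, where the groups overlapped (82 to 155 junction reads, unadjusted p of 0.0715 by edgeR). Both exons were thus used at intermediate levels in every library.

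**Figure D4:**
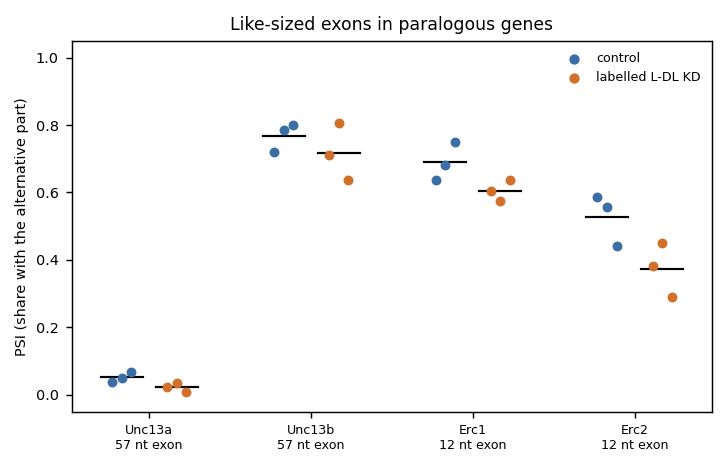
PSI of like-sized exons in the paralogs Unc13a and Unc13b (57 nt) and Erc1 and Erc2 (12 nt), 1 point for each library (3 control in blue, 3 labelled L-DL KD in orange), bars at the group mean. The Unc13a exon stays below 0.07 and the Unc13b exon above 0.6 in all 6 libraries, and the Erc exons lie between 0.290 and 0.749.

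Near the 3′ end of Erc1, a 67 nt exon (chr6:119618846-119618912) had PSI of 0.735, 0.687 and 0.790 in the controls and 0.663, 0.518 and 0.409 in libraries labelled L-DL KD. The latter were all lower (unadjusted p of 0.0499, adjusted p of 0.377 by edgeR). With 1 library left out the unadjusted p stayed under 0.05 only without the first listed library labelled L-DL KD, and was 0.0621 to 0.174 otherwise. The exon length is not a multiple of 3, and in a transcript annotated as a target of nonsense-mediated decay, the coding sequence ends in this exon. A mutually exclusive event that sets it against the 189 nt exon 18 of Erc1-201 shares its reads, and there its PSI was 0.376, 0.272 and 0.207 against 0.244, 0.0648 and 0.0629, with overlap. For Erc2, none of the 8 tested events had an unadjusted p under 0.05. Its best covered event with a mean PSI between 0.1 and 0.9, 2 exons of 194 nt and 161 nt set against each other, had PSI of 0.387, 0.369 and 0.526 against 0.378, 0.461 and 0.421. Its reads for the 194 nt exon (87, 89 and 132 in the controls) nearly equal those that skip a neighbouring 36 nt exon (87, 89 and 131). Whether transcripts hold both exons was not tested, so this PSI is not read as the share of an exclusive choice.

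In Rims2, the 242 nt exon 22 of Rims2-201 (chr15:39616269-39616510) had PSI of 0.319, 0.333 and 0.194 in the controls and 0.455, 0.529 and 0.871 in libraries labelled L-DL KD. All 3 of the latter were higher, from 26 to 42 junction reads per library (unadjusted p of 0.0354, adjusted p of 0.350 by edgeR). The change of 0.336 was 0.21 (unadjusted p of 0.146) without the third listed library labelled L-DL KD, and the unadjusted p was also above 0.05 without the first (0.0524) or the third (0.11) control. The skipping junction of this event spans 11 annotated exons, so it also leaves out others. Rims1 had the most listed events (25), and none of the 13 tested had an unadjusted p under 0.05. Its 236 nt exon 27 of Rims1-201 (chr1:22346293-22346528) had PSI of 0.614, 0.711 and 0.683 in the controls and 0.476, 0.783 and 0.837 in libraries labelled L-DL KD, which spread on both sides of the controls. The skipping junction of this event spans 4 annotated exons, so it also leaves out others. In another listed event of exon 27, with a skipping junction over 2 annotated exons, PSI was 0.984 to 1 in every library. That event was not tested. In Rimbp2, a 112 nt exon (chr5:128897611-128897722) known from the processed transcript Rimbp2-203 and outside any coding sequence had PSI of 0.166, 0.145 and 0.0569 in the controls. In the libraries labelled L-DL KD it was 0.0208, 0.00887 and 0.0300, all lower (unadjusted p of 0.00625, adjusted p of 0.197 by edgeR).

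**Figure D5:**
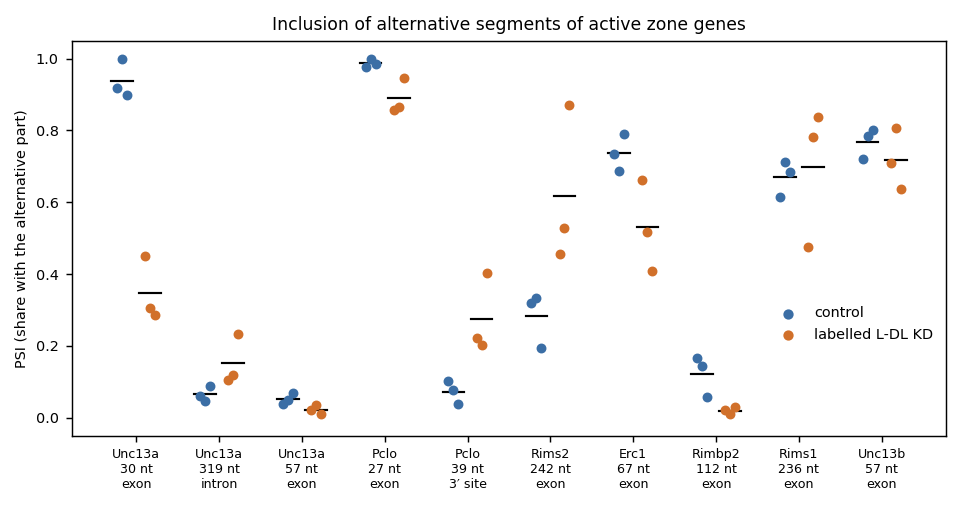
PSI of 10 alternative segments, 1 point for each library (3 control in blue, 3 labelled L-DL KD in orange), bars at the group mean. The Unc13a 30 nt exon falls from 0.898 to 1 in the controls to 0.286 to 0.449, the Pclo 39 nt site and Rims2 242 nt exon stand higher in the orange points, and the Rims1 and Unc13b exons overlap.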

How the data were processed

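The deposited gene table holds unnormalized counts of reads on each Ensembl gene, made by the authors. The second table is the authors' rMATS junction output on GRCm38, with the inclusion and skipping counts and the effective length of each form. The submitters' processing notes name HISAT2 2.1.0, HTSeq 0.6.1 and Bowtie 1.1.2. The deposited p-value, FDR and inclusion level columns hold the authors' comparison and were not used. PSI was computed from the junction counts. The splicing table numbers its groups 1 and 2, read as L-DL KD and control from the paper's definition of the change. Across 6733 genes the log ratio of its junction counts followed that of the gene counts (Spearman's rho 0.92, over genes).

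Gene counts with at least 10 in at least 3 libraries were tested after TMM scaling with edgeR 4.0.16 (quasi-likelihood, Benjamini-Hochberg over all genes, adjusted p under 0.05, R 4.3.3). Junction counts were tested with edgeR on 12 columns, with an effect for each library, inclusion, and the change of inclusion, where an event averaged 20 or more counts per library and 1 or more of each form. Members and lists were chosen with earlier results of these data known. All members and Hnrnpdl are named, and partner genes up to 4 with the largest fall and rise among those called, and the other liprins, which were added after their values were seen. Events are named 1 per segment, up to 4 per member by smallest unadjusted p under 0.05, or otherwise the best covered one with a mean PSI of 0.1 to 0.9. Both fits were tested on simulated data: the expression fit called 57 of 100 genes changed by 1 on the log2 scale and 7 of 100 changed by 0.5, and the splicing fit 60 of 200 changed events. Annotation and sequences are from GENCODE vM21 transcripts (GRCm38), and levels per kilobase use the union of annotated exons. Alternatives were DESeq2 1.42.0, limma 3.58.1 on log2 form ratios with a pseudocount of 0.5, library size scaling, scaling to the neuron list, other filters, the replicate number as a block, and omission of each library in turn.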

Additional observations from a re-analysis of the deposited data

How the results depend on the processing

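DESeq2, library size scaling and no filter kept all 7 member calls. Genes called higher and lower numbered 2743 and 2636, and 9659 and 542 with scaling to the neuron list, where members called higher and lower numbered 2 and 2 and partner genes 7 and 4. Partner genes called higher were 2 with library size scaling and 2 with DESeq2. Hnrnpdl then stood at 0.54 (adjusted p = 0.00624 by edgeR) with scaling to the neuron list, where Unc13a (0.23), Unc13b (0.30), Unc13c (0.47) and Erc1 (0.07) turned positive. With 1 library left out, genes called higher ranged from 1770 to 3236 and lower from 1676 to 3241, members lower from 4 to 8 and higher from 0 to 1, partner genes lower from 13 to 18 and higher from 1 to 2, and the log2 fold change of Hnrnpdl from -0.13 to 0.15 and that of Unc13c from -0.35 to 0.23.

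Events past the adjusted threshold numbered 48, ranged from 0 to 52 with 1 library left out, and were 0 with limma. Member events past it numbered 1, and 0 with limma and with any 1 library left out. They were also 0 with a mean of at least 50 counts, where the Unc13a event, at 46.3 reads per library, was itself removed. Member events past the unadjusted threshold numbered 10. They ranged from 5 (without the third listed library labelled L-DL KD) to 10 with 1 library left out and from 7 to 12 under other minimum counts, 1 event per segment and limma. With 1 library left out, the PSI change of the Rims1 exon ranged from -0.0403 to 0.14 and that of the Erc2 event from -0.0364 to 0.0419. The cause of these differences was not tested.

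Deviations of same-numbered libraries from their group means had correlations of 0.0535, 0.127 and -0.107. These values do not show that the numbers pair the libraries, and they cannot exclude it. A fit with the replicate block called 2311 genes higher and 2324 lower, and 6 members lower, with Unc13a at -0.29 (adjusted p = 0.0588 by edgeR). No paired analysis was possible because the splicing table carries no replicate numbers, as far as the events are concerned. On simulated data the splicing fit called 60 of 200 changed events, so events without a call are not shown to be alike in both groups.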
